A study of Mus musculus with 5 samples.

Results

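The 10 genes described here encode the endosomal nucleic-acid receptors of the Toll-like family in the mouse and the proteins that place and connect them: Tlr3, Tlr7, Tlr9, Tlr13, Unc93b1, Myd88, Irak4, Traf6, Slc15a4 and Cnpy3. They were picked by symbol, and each symbol matched 1 of the 32285 genes in the count tables. All 5 libraries came from C57BL/6 mice that had been given GFP-positive CMM leukaemia cells by vein, and GFP-positive, c-Kit-positive cells were sorted from the spleen for single-cell RNA sequencing with 10x Genomics 3' v3.1 chemistry. CMM is a transplantable mouse acute myeloid leukaemia that carries the inv(16) fusion. The Decoy mice (4 libraries, numbered 2, 3, 5 and 6) received CpG-STAT3dODN, an oligonucleotide that joins a CpG sequence to a double-stranded DNA decoy for the transcription factor STAT3, and the PBS mice (1 library) received phosphate-buffered saline. Both groups were injected intravenously 3 times, every other day, from the point at which about 1% of blood cells were GFP-positive leukaemia cells, so every library comes from a leukaemia-bearing mouse. The labels give no age and do not say whether a library is 1 animal or a pool, so the spread between Decoy libraries may be technical in part. Since only 1 PBS library exists, no spread could be measured in that group.

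Tlr9 is the receptor for unmethylated CpG DNA, Tlr7 binds single-stranded RNA, Tlr3 binds double-stranded RNA, and Tlr13, which the mouse has and humans lack, binds a bacterial ribosomal RNA sequence. Cnpy3 helps Tlr7 and Tlr9 fold in the endoplasmic reticulum, Unc93b1 escorts the receptors to the endosome, and Slc15a4 is a peptide and histidine transporter of the endolysosome that Tlr7 and Tlr9 signalling depends on. Myd88 is the adaptor of every member of the receptor set except Tlr3, Irak4 is the kinase that it recruits, and Traf6 is the ubiquitin ligase that follows. In the mouse, plasmacytoid dendritic cells, B cells and macrophages are the textbook carriers of Tlr9. CpG-linked oligonucleotides are used to deliver nucleic acids to Tlr9-bearing cells, and the comparisons below ask which of the sorted cells held these transcripts and whether their levels differed between Decoy and PBS.

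The genes lie at the following places in build GRCm38, with GENCODE M21 annotation, in which all 10 identifiers were found as protein-coding genes. Among the receptors these are Tlr3 (ENSMUSG00000031639) at chr8:45395665-45411080 on the minus strand, Tlr7 (ENSMUSG00000044583) at chrX:167304929-167330558 on the minus strand, Tlr9 (ENSMUSG00000045322) at chr9:106222598-106226883 on the plus strand and Tlr13 (ENSMUSG00000033777) at chrX:106143204-106160493 on the plus strand. The escort, chaperone and transporter are Unc93b1 (ENSMUSG00000036908) at chr19:3935186-3949340 on the plus strand, Cnpy3 (ENSMUSG00000023973) at chr17:46735705-46752214 on the minus strand and Slc15a4 (ENSMUSG00000029416) at chr5:127595664-127632897 on the minus strand. The signalling genes are Myd88 (ENSMUSG00000032508) at chr9:119335934-119341411 on the minus strand, Irak4 (ENSMUSG00000059883) at chr15:94543643-94581815 on the plus strand and Traf6 (ENSMUSG00000027164) at chr2:101678429-101701669 on the plus strand. Genes on the opposite strand overlap Tlr3 (Gm45542), Myd88 (Acaa1a), Irak4 (Twf1), Slc15a4 (Gm43474 and Glt1d1) and Cnpy3 (Gm26904). Slc22a14 overlaps Myd88 on its own strand. Whether counting used the strand is not given in the sources used here, so counts of these 5 genes could include reads of their neighbours.

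The promoters of 8 members were matched in the RefSeq table of build GRCm38.p6, as windows of 250 bases before to 50 bases after the start that this table uses. That start is the GENCODE gene start given above only for Tlr9 and Cnpy3. For Tlr13, Irak4 and Traf6 the GENCODE start is another base within the window. For Tlr3, Myd88 and Slc15a4 the window lies inside the GENCODE gene. The Slc15a4 window, chr5:127617343-127617642, is far from that gene's GENCODE start at 127632897. The windows are introduced first because the members differed from each other in how far their level varied between cell types. The windows also differ in their content of CG pairs. The median over all 32851 promoter windows in the table was 7 CG pairs. Tlr9 had 0, as did 5.43% of all windows, and Tlr13 had 5, Tlr3 had 10, Myd88 had 13, Irak4 had 16, Traf6 had 19, Slc15a4 had 23 and Cnpy3 had 30. Windows are written 5' to 3' on the gene's own strand. The windows of Tlr13 (chrX:106143025-106143324, plus strand) and Cnpy3 (chr17:46752165-46752464, minus strand) are shown with each CG pair in capitals, as the lowest above 0 and the highest of the 8. That of Tlr9 (chr9:106222348-106222647, plus strand) is shown because it holds no CG pair, with capitals at the single match to the letters GAGGAAGT, which lies on the opposite strand, so that its reverse complement is printed. Those letters, a form of the site of the myeloid and B cell factor PU.1, occurred on either strand in 3.2% of all windows and in none of the other 7. That of Myd88 (chr9:119339969-119340268, minus strand) has in capitals 1 match each to TTCNNNGAA, the letters that STAT factors bind, found in 8.3% of all windows, and to an interferon response form, GAAA and GAAA set apart by any 2 bases, found in 3.44%; both lie on the gene's own strand. The 2 Myd88 matches overlap by 3 bases, and neither set of letters was found on either strand in the other 7 windows. A match is a description of letters and was not tested as a binding site.
Tlr9: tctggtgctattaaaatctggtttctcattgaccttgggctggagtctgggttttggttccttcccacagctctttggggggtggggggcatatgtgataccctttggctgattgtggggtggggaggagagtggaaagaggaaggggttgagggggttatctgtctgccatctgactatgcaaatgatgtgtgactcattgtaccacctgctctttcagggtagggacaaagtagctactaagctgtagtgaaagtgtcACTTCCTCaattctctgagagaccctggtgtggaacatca
Tlr13: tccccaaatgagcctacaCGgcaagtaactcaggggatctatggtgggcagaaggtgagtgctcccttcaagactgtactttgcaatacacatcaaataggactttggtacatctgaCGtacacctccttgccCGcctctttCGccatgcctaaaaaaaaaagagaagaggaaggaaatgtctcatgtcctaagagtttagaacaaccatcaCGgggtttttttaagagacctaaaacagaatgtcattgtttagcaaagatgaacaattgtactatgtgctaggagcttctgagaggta
Myd88: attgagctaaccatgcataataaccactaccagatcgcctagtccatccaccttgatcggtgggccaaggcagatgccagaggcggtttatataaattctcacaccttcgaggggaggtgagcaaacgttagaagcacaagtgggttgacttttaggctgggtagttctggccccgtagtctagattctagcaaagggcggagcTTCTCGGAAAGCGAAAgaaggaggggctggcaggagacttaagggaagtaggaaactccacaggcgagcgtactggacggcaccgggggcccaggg
Cnpy3: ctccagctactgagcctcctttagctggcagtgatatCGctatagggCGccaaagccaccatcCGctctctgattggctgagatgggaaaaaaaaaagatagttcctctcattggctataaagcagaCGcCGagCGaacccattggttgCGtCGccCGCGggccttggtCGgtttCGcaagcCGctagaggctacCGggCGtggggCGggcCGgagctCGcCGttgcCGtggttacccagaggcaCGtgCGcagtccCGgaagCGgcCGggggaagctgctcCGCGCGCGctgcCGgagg

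After filtering, the Decoy libraries held 6250, 1933, 3607 and 3216 cells (Decoy 2, 3, 5 and 6), and the PBS library held 16034. Their counts summed to between 54338620 and 232694617 unique molecular identifiers (UMIs, counted mRNA molecules) in the Decoy libraries and 509207914 in PBS. Clusters were named from marker genes. Granulocyte-monocyte progenitor and monocyte-like cells are written GMP/monocyte-like below. The class with most cells, called mast cell and basophil-like and below mast/basophil-like, passed 4 of its 10 markers, Cpa3, Fcer1a, Ms4a2 and Kit, and was led by Cldn3, Wnt2 and the embryonic globin Hbb-y, so its name rests on few genes. Its share of cells was 84.0%, 19.7%, 0% and 44.1% in Decoy 2, 3, 5 and 6, against 91.5% in PBS. In this class Xist was at 879, 1082 and 1031 CPM (a gene's UMIs scaled to the total of its library or class) in Decoy 2, 3 and 6 and at 976.5 CPM in PBS, while the Y-linked genes summed to 0.189, 0.63 and 0.475 CPM in those Decoy libraries and to 0.211 CPM in PBS. Kit was at 51.9, 46.4 and 43.7 CPM there in Decoy 2, 3 and 6 and at 51.4 CPM in PBS. Macrophage-like cells carried Y-linked genes at 98.3 to 148 CPM in Decoy and 150.0 CPM in PBS, with Kit at 0.734 to 11.1 CPM in Decoy and 1.88 CPM in PBS. Macrophage-like cells thus had less Kit RNA than the mast/basophil-like class, although the sort was on c-Kit. Their Xist was at 0 to 21.6 CPM in Decoy and 37.5 CPM in PBS, so sex-linked RNA also set these classes apart. The name mast/basophil-like is a marker label and does not say that the class is host mast cells or basophils. Whether that class is the injected leukaemia was not tested. Decoy 5, with no cell of that class, and Decoy 2, which has the composition nearest to PBS, stand apart from the other Decoy libraries, and results are given without them where a call changed. From 1 to 37 cell barcodes were shared between any 2 libraries.

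Tlr9 transcripts were few and were found mainly in macrophage-like and B cell-like cells. In all, the Decoy libraries held 218 UMIs of Tlr9 (21, 54, 93 and 50 in Decoy 2, 3, 5 and 6), and PBS held 7. Of the 218, 86 (39.4%) were in macrophage-like cells, 76 (34.9%) in B cell-like cells, 20 (9.17%) in GMP/monocyte-like cells, and 27 (12.4%) in an unnamed cluster led by Hba-x and Prg2 that also carries macrophage markers. B cell-like cells had 5.52, 2.11, 3.86 and 1.54 CPM of Tlr9 in Decoy 2, 3, 5 and 6, from 10, 10, 49 and 7 UMIs, against 0.863 CPM in PBS, from 1 UMI (exact Poisson 95% interval 0.0218 to 4.81 CPM). Every Decoy library lay above PBS, and the ratio of the summed rates, 76 UMIs against 1, was 3.70 with an exact 95% interval of 0.645 to 148 for counting error alone. In macrophage-like cells the Tlr9 level was 2.87, 2.86, 1.69 and 3.32 CPM in the Decoy libraries, against 3.75 CPM from 2 UMIs in PBS, with a ratio of 0.669 and an interval of 0.180 to 5.61. Neither interval excludes a ratio of 1, so a difference in Tlr9 was not detectable in either class at this depth.

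The mast/basophil-like class had 0 UMIs of Tlr9 in all 7048 of its Decoy cells and 2 UMIs in its 14679 PBS cells. Per library, 0 of 5251 cells in Decoy 2 allows a share of up to 0.0571% of cells with a Tlr9 UMI, 0 of 380 cells in Decoy 3 up to 0.789%, and 0 of 1417 cells in Decoy 6 up to 0.212%. The share in PBS was 0.0136% (Clopper-Pearson 95% interval 0.00165% to 0.0492%). Their median depth was 28276 to 38185 UMIs per cell in the Decoy libraries and 31912 in PBS, above that of the B cell-like cells given below. Plasmacytoid dendritic-like cells, which passed all 8 of their markers, also showed 0 UMIs of Tlr9, but there were only 40 of them in the Decoy libraries and 2 in PBS. The same held for neutrophil-like, plasma cell-like and Car1 erythroid-like cells, all at 0 UMIs of Tlr9 in every library that had them. T cell-like cells, which serve as a background reading, had 1, 1, 2 and 1 UMIs of Tlr9 (0.465 to 0.807 CPM) in the Decoy libraries and 0 in PBS. They also held the B cell gene Cd79a, at 59.4 to 199 CPM in Decoy and 5.84 CPM in PBS. This background is thus not free of B cell transcripts, and their part in the Tlr9 reading was not tested. The Tlr9 level of GMP/monocyte-like cells, 0.326 to 1.23 CPM in Decoy and 0.449 CPM in PBS, overlapped this background in Decoy.

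**Figure D1:**
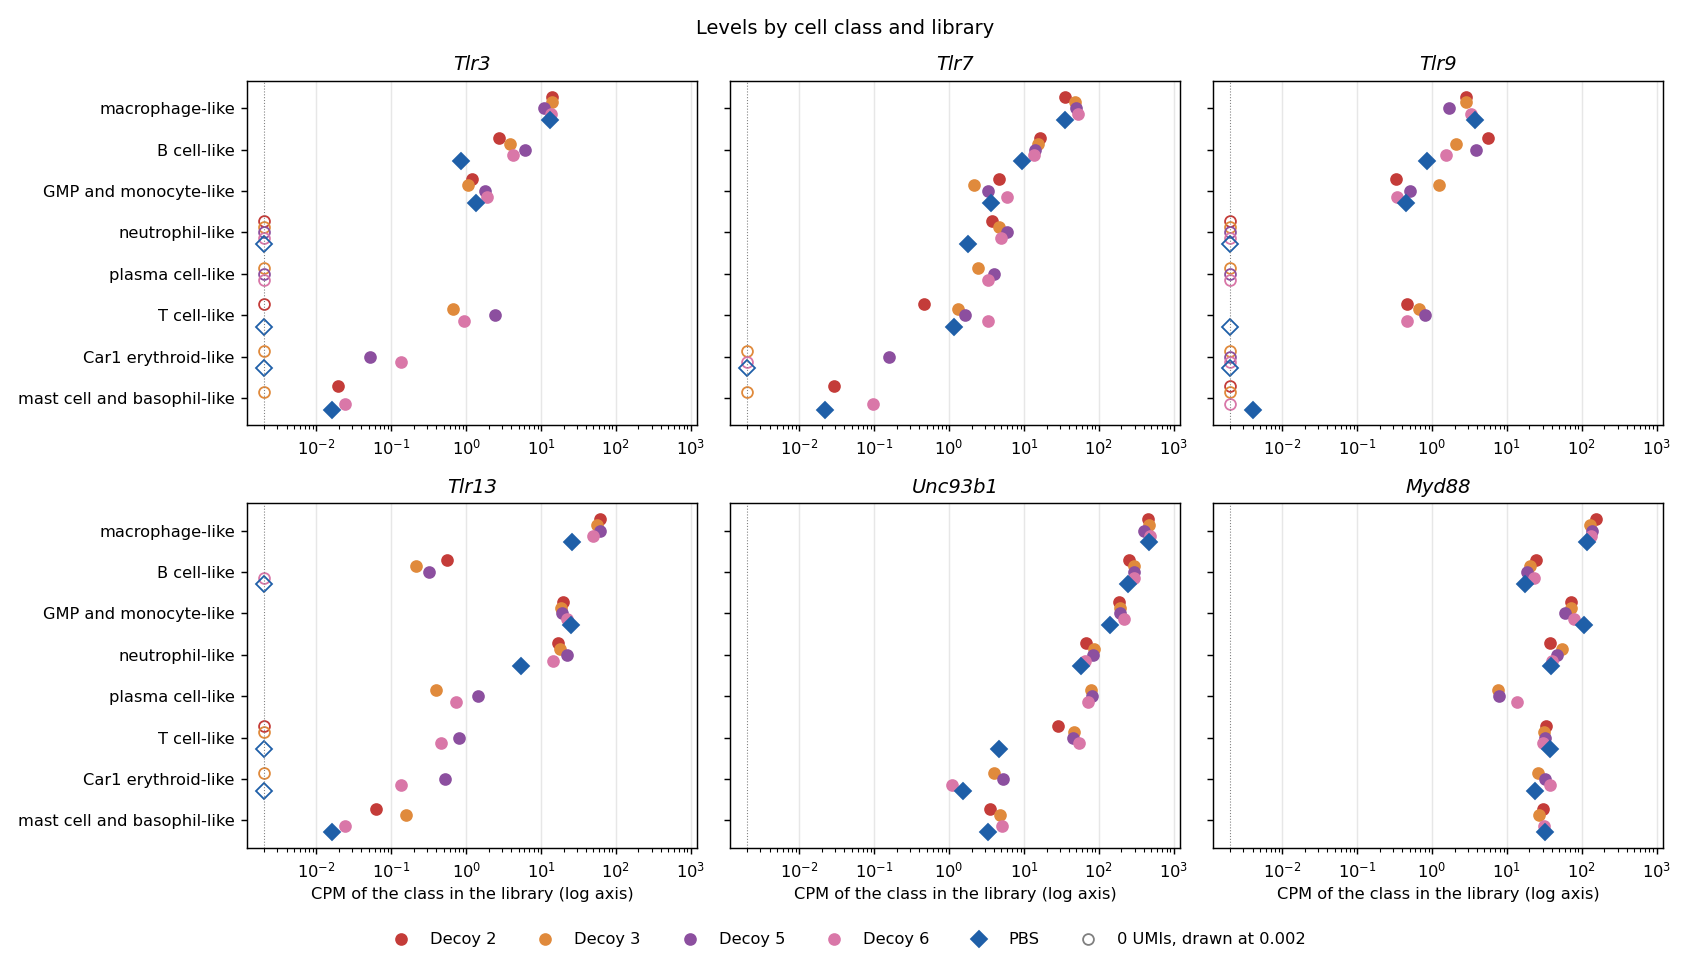
Level of 4 receptors, Unc93b1 and Myd88 by cell class; the x axes give CPM on a log scale, each point is 1 library, and open symbols mark 0 UMIs. Tlr9 in mast/basophil-like cells was at 0 UMIs in each Decoy library and at 0.00406 CPM in PBS, while Myd88 was between 26.9 and 32.3 CPM in the same cells.

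Of the 2855 Tlr7 UMIs in the Decoy libraries, 58.8% were in macrophage-like cells, 17.0% in the unnamed cluster led by Hba-x and Prg2 and 11.9% in B cell-like cells. Of the 67 in PBS, 28.4% were in macrophage-like, 23.9% in GMP/monocyte-like, 16.4% in B cell-like and 16.4% in mast/basophil-like cells. Macrophage-like cells had 35.2, 47.6, 50.1 and 52.7 CPM in Decoy 2, 3, 5 and 6, against 35.6 CPM in PBS. B cell-like cells had 16.5, 15.2, 14.03 and 13.4 CPM of Tlr7 in the Decoy libraries, against 9.49 CPM from 11 UMIs in PBS. The ranges of these classes did not overlap each other, and those of neutrophil-like (4.81 ± 0.858 CPM), GMP/monocyte-like (3.97 ± 1.59 CPM) and plasma cell-like cells (3.23 ± 0.792 CPM; SD over 4, 4 and 3 Decoy libraries) overlapped at a lower level. Plasmacytoid dendritic-like cells had 93.3, 40.8, 82.6 and 105 CPM in the Decoy libraries and 138 CPM in PBS, from 3, 3, 20 and 16 UMIs in Decoy and 3 in PBS, so that Decoy 3 lay within the macrophage-like range and the others above it. Mast/basophil-like cells had 6, 0 and 4 UMIs of Tlr7 in Decoy 2, 3 and 6 (0.029, 0 and 0.0949 CPM), and 11 UMIs in PBS (0.0223 CPM).

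Among the named classes of 50 or more cells, Tlr13 was highest in macrophage-like cells, followed by GMP/monocyte-like and neutrophil-like cells. It stood at 61.4, 56.1, 61.2 and 49.5 CPM in macrophage-like cells of Decoy 2, 3, 5 and 6, and at 26.3 CPM, from 14 UMIs, in those of PBS. GMP/monocyte-like cells had 19.9, 18.7, 18.98 and 22.0 CPM in the Decoy libraries and 25.2 CPM in PBS, and neutrophil-like cells had 16.9, 17.7, 21.9 and 14.5 CPM in Decoy and 5.32 CPM, from 6 UMIs, in PBS. B cell-like cells had 0 to 0.552 CPM of Tlr13 in the Decoy libraries and 0 UMIs in PBS, close to the level in T cell-like cells, which was 0 to 0.807 CPM in Decoy and 0 in PBS. In the Decoy libraries 1951 of the 3557 Tlr13 UMIs (54.8%) were in macrophage-like cells, whereas in PBS 112 of the 148 (75.7%) were in GMP/monocyte-like cells.

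Tlr3 was highest in conventional dendritic-like cells. These cells, with 8, 21, 47 and 36 cells in the Decoy libraries and 40 in PBS, had 56.9, 67.0, 18.2 and 123 CPM from 6, 17, 8 and 34 UMIs in Decoy, and 132 CPM from 33 UMIs in PBS. Among classes of 50 or more cells, macrophage-like cells led with 13.9, 13.9, 11.1 and 13.5 CPM in Decoy 2, 3, 5 and 6, against 13.1 CPM from 7 UMIs in PBS. B cell-like cells came next among the named classes, with 2.76, 3.79, 6.15 and 4.18 CPM in the Decoy libraries, against 0.863 CPM from 1 UMI in PBS. Their Decoy mean of 4.22 CPM lay below those of 2 unnamed clusters that passed all 10 macrophage markers. The cluster led by Sparc and Ppbp had 5.21 to 12.3 CPM in Decoy, overlapping macrophage-like cells, and 3.67 CPM from 1 UMI in PBS. That led by Hba-x and Prg2 had 6.05 ± 1.66 CPM (SD, n = 3) in Decoy and 0.949 CPM from 1 UMI in PBS. Neutrophil-like and plasma cell-like cells showed 0 UMIs of Tlr3 in every library.

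Among the named classes of 50 or more cells, Unc93b1, the escort of all these receptors, was highest in macrophage-like, then B cell-like, then GMP/monocyte-like cells. Neighbours in that order did not overlap. The unnamed cluster led by Hba-x and Prg2 had 257 to 274 CPM in the 3 Decoy libraries with enough cells, within the B cell-like range, and 20.9 CPM in PBS. That led by Sparc and Ppbp had 199 to 244 CPM in Decoy, overlapping GMP/monocyte-like cells, and 51.3 CPM in PBS. The smaller plasmacytoid dendritic-like class had 521 CPM of Unc93b1 over its pooled Decoy cells (261 UMIs) and 643 CPM in PBS (14 UMIs), and the conventional dendritic-like class 218 CPM (235 UMIs) and 236 CPM (59 UMIs). It stood at 449, 470, 405 and 478 CPM in macrophage-like cells of Decoy 2, 3, 5 and 6, and at 471 CPM in those of PBS. B cell-like cells had 249, 298, 295 and 294 CPM in the Decoy libraries and 243 CPM in PBS, and GMP/monocyte-like cells had 185, 190, 193 and 219 CPM in Decoy and 142 CPM in PBS. Plasma cell-like and neutrophil-like cells were next at 76.7 ± 4.63 CPM (SD, n = 3) and 75.4 ± 10.8 CPM (SD, n = 4) in Decoy, with overlapping ranges. The mast/basophil-like class had 3.47, 4.803 and 5.13 CPM of Unc93b1 in Decoy 2, 3 and 6, and 3.34 CPM in PBS, overlapping the range of Car1 erythroid-like cells (1.08 to 5.30 CPM in Decoy and 1.52 CPM in PBS). Beside those values, C1qa stood at 1.18, 3.07 and 3.87 CPM in the mast/basophil-like cells of Decoy 2, 3 and 6 and at 0.698 CPM in those of PBS, and the summed macrophage markers at 6.54, 21.02 and 20.8 CPM in Decoy and 4.32 CPM in PBS; their part in the Unc93b1 reading was not tested.

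The other members were shared more widely between classes. Among the classes of 50 or more cells, Cnpy3 ranged from 6.21 ± 0.309 CPM in plasma cell-like cells (SD, n = 3) to 70.1 ± 3.20 CPM in macrophage-like cells (SD, n = 4) of the Decoy libraries. Plasmacytoid dendritic-like cells lay above that range at 102 CPM of Cnpy3 over the pooled Decoy cells (51 UMIs) and 91.8 CPM in PBS (2 UMIs), and mast/basophil-like cells had 15.004, 16.1 and 15.9 CPM in Decoy 2, 3 and 6 and 16.8 CPM in PBS. Slc15a4 was at 52.4, 62.9, 62.5 and 61.1 CPM in macrophage-like cells of the Decoy libraries and 56.3 CPM in PBS, and at 5.81, 6.22 and 5.22 CPM in mast/basophil-like cells of Decoy and 5.27 CPM in PBS. Myd88 was at 153, 130, 136 and 132 CPM in macrophage-like cells of Decoy 2, 3, 5 and 6 and 118 CPM in PBS. The mast/basophil-like class had 29.9, 26.9 and 31.4 CPM of Myd88 in Decoy and 32.3 CPM in PBS, overlapping T cell-like cells (30.3 to 32.8 CPM in Decoy and 37.4 CPM in PBS) and above B cell-like cells (18.8 to 24.3 CPM in Decoy and 17.3 CPM in PBS). Irak4 in the mast/basophil-like class was at 21.9, 24.7 and 23.3 CPM in Decoy and 26.7 CPM in PBS, and Traf6 at 9.25, 8.82 and 8.09 CPM in Decoy and 10.3 CPM in PBS. For Traf6 the ranges of all 7 neighbouring pairs of named classes overlapped in the Decoy libraries, while some classes further apart did not. Car1 erythroid-like (10.2 to 11.3 CPM) and macrophage-like cells (9.42 to 11.6 CPM) lay above mast/basophil-like (8.09 to 9.25 CPM) and plasma cell-like cells (5.26 to 6.41 CPM). Neutrophil-like cells, at 4.09 to 13.1 CPM, overlapped all of these.

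**Figure D2:**
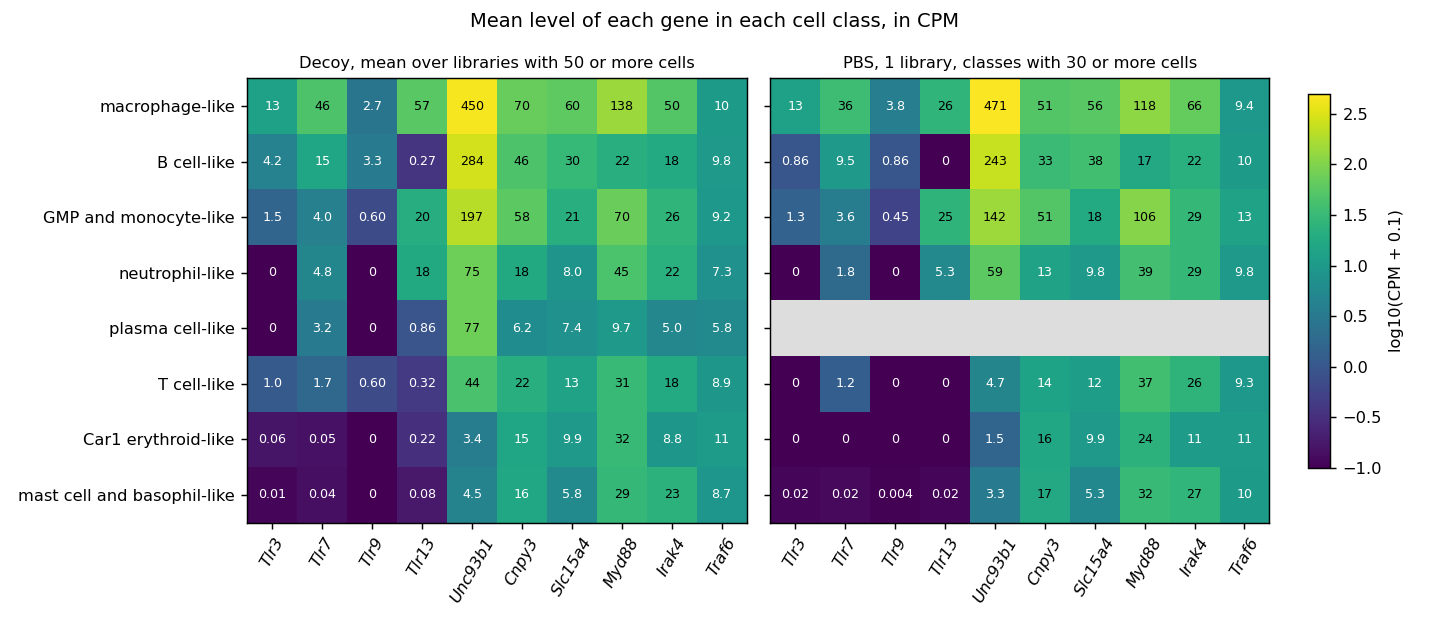
Mean CPM of the 10 genes (columns) in 8 cell classes (rows), with the Decoy libraries on the left and PBS on the right; colour is log10(CPM + 0.1) and grey means too few cells. Unc93b1 averaged 450.4 CPM in macrophage-like and 4.47 CPM in mast/basophil-like cells of Decoy, while Traf6 stays between 5.84 and 10.8 CPM in the Decoy classes.

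The spread between classes differed from member to member. Folds were taken from the highest Decoy mean, among 8 named classes of 50 or more cells, to the mast/basophil-like class. Tlr7 differed 1123-fold, Tlr3 912-fold and Tlr13 701-fold (10, 5 and 16 UMIs in the lower class), and Unc93b1 differed 101-fold. The Decoy mean of Tlr9 in B cell-like cells lay 284-fold above a floor of 3 UMIs over the pooled mast/basophil-like Decoy cells, which had 0 UMIs. That fold is rough too, as the B cell-like level ran from 1.54 to 5.52 CPM between Decoy libraries. No fold without 1 library was taken for Tlr9. Slc15a4 differed 10.4-fold, Myd88 4.68-fold, Cnpy3 4.48-fold, Irak4 2.16-fold and Traf6 1.24-fold. The folds of the receptors are rough, since leaving out 1 Decoy library in turn moved that of Tlr7 between 742-fold and 3051-fold, that of Tlr3 between 596-fold and 1338-fold and that of Tlr13 between 541-fold and 1324-fold. At clustering resolution 0.3, where the mast/basophil-like name stays on 4470 cells and 17318 cells fall in an unnamed group led by Hbb-y and Cited1, Tlr7 differed 355-fold, Tlr13 1511-fold, Unc93b1 43.8-fold and Irak4 1.16-fold. Of the 8 members with a promoter window, the 3 receptors had the fewest CG pairs and the widest spread, a description over 8 genes noted after the values were seen.

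When all kept cells of a library were summed, 8 of the 10 members were higher in every Decoy library than in PBS and 2 were lower, but none was called. A gene was called at a Benjamini-Hochberg adjusted p under 0.05 in edgeR's quasi-likelihood test, and 0% of the 16006 genes tested reached it. At an unadjusted p under 0.05 there were 1667 genes (10.4%), 4 of them members (Tlr7, Tlr9, Tlr13 and Unc93b1), and limma voom called 0. Of the genes tested, 34.3% were higher in every Decoy library than in PBS and 31.2% lower. Tlr9 had 0.0951, 0.948, 1.11 and 0.605 CPM over all cells of Decoy 2, 3, 5 and 6, against 0.0140 CPM in PBS, which gave 5.55 ± 1.86 as log2 fold change with its SE (adjusted p = 0.465). Tlr7 was at 0.960, 12.6, 14.2 and 8.90 CPM in Decoy and 0.134 CPM in PBS (log2 fold change 6.09, adjusted p = 0.465), and Unc93b1 at 21.7, 170.3, 184 and 113 CPM in Decoy and 6.03 CPM in PBS (log2 fold change 4.34, adjusted p = 0.465). Tlr13, Tlr3 and Slc15a4 had log2 fold changes of 5.22, 4.32 and 1.71 with adjusted p from 0.465 to 0.467, and Cnpy3 and Myd88 had 0.83 and 0.51 (adjusted p = 0.479 for each). Irak4 and Traf6 were lower, by -0.16 each on the log2 scale (adjusted p 0.595 and 0.629). For every member with a large difference, Decoy 2 was the lowest Decoy library and the one nearest to PBS, as it was in its share of mast/basophil-like cells.

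The count of calls changed with Decoy 2 and with the test. Without Decoy 2, 15.5% of 15936 genes were called by edgeR, 15.1% as higher, and among them were 6 members, Tlr3, Tlr7, Tlr9, Tlr13, Unc93b1 and Slc15a4 (log2 fold changes of 1.94 to 6.44, adjusted p 0.0177 to 0.0295). Without Decoy 5 the count of called genes stayed at 0. DESeq2's Wald test on all libraries called 2029 of 16006 genes, among them the 4 receptors and Unc93b1. The mast/basophil-like class, in which receptors were at or near 0, differed in share between the libraries as given above; its part in these sums was not tested. Fewer cells of a class and less RNA per cell cannot be told apart in these sums, and the comparisons within a class below use the UMIs of that class alone.

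**Figure D3:**
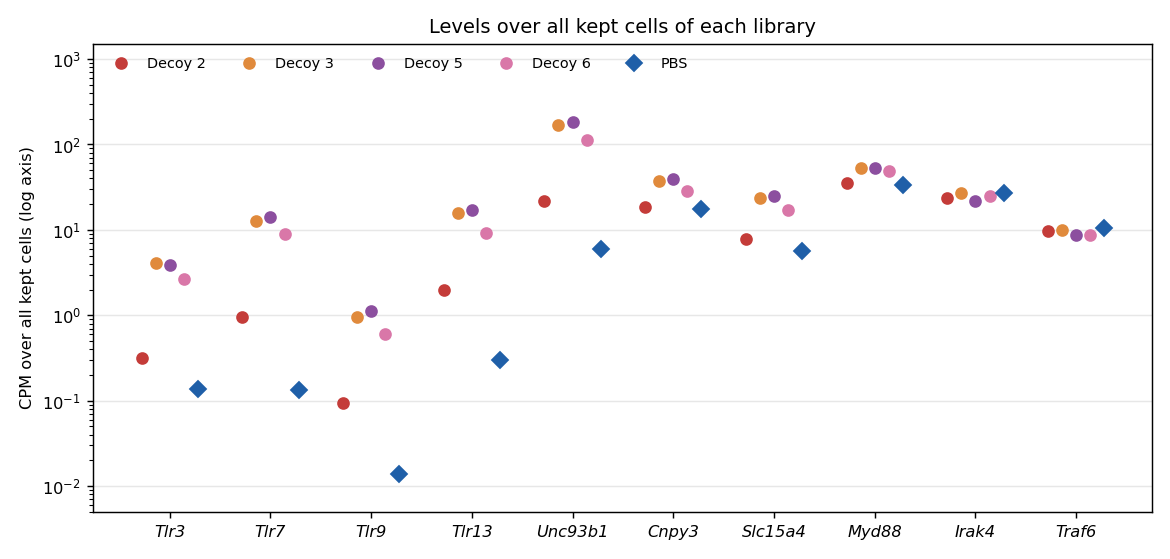
CPM (log axis) of each gene over all kept cells, 1 point per library. For Tlr9 the Decoy libraries lie between 0.0951 and 1.11 CPM and PBS at 0.0140 CPM, while for Irak4 the Decoy libraries lie between 21.6 and 26.8 CPM and PBS at 27.0 CPM.

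The share of cells with a UMI followed the same pattern when each cell of at least 3000 UMIs was thinned to 3000 UMIs. Shallower cells were left out, so the cells counted had equal depth but depth still decided which cells were counted. Cells with a UMI of any endosomal Tlr with Unc93b1, a stand-in for cells that transcribe a receptor and its escort, made up 0.827%, 6.81%, 7.90% and 4.28% of Decoy 2, 3, 5 and 6, against 0.121% of PBS. The Decoy mean was 4.95% ± 3.14 (SD, n = 4), 4.83 points above PBS, with p = 0.4 in a two-sided exact permutation test whose smallest possible p is 0.2, so this design cannot reach 0.05. Tlr9 itself was found in 0.0827%, 0.229%, 0.666% and 0.329% of thinned cells in the Decoy libraries and in 0.00637% in PBS (difference 0.320 points, exact permutation p = 0.4). Before thinning the Tlr9 shares were 0.336%, 2.64%, 2.52% and 1.46% in Decoy and 0.0374% in PBS. Unc93b1 was found in 5.67%, 38.7%, 46.6% and 26.6% of thinned Decoy cells and in 2.30% of PBS cells. In each of these measures every Decoy library was above PBS and Decoy 2 was closest to it.

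The shares were also taken within classes. Among thinned macrophage-like cells, any endosomal Tlr with Unc93b1 was found in 23.2%, 20.7%, 24.5% and 20.6% in Decoy 2, 3, 5 and 6, and in 19.4% of the 31 cells of PBS. Among thinned B cell-like cells it was 5.41%, 4.21%, 4.66% and 3.76% in Decoy and 1.28% in PBS; T cell-like cells, as background, were at 0% in all libraries. Thinned neutrophil-like cells had such a pair of UMIs in 4.83%, 3.70%, 3.61% and 4.24% in the Decoy libraries and in 0 of 57 cells in PBS, which allows up to 5.26%, and thinned GMP/monocyte-like cells in 4.84%, 8.27%, 5.03% and 5.48% in Decoy and 6.84% in PBS. Of thinned mast/basophil-like cells 0 of 5185, 378 and 1405 in Decoy 2, 3 and 6 and 0 of 14615 in PBS had such a pair of UMIs, which allows shares of up to 0.0579%, 0.794% and 0.214% in Decoy and 0.0205% in PBS. Before thinning, B cell-like cells with a Tlr9 UMI made up 6.76%, 2.68%, 3.95% and 1.48% in the Decoy libraries and 0.5% in PBS, against 1.205%, 1.09%, 1.08% and 0.840% of T cell-like cells in Decoy and 0% in PBS. The median depth of the B cell-like cells was 8160, 9079, 7471 and 6233 UMIs in Decoy and 3929 in PBS, and that of the T cell-like cells 13644, 9076, 7196 and 11898 in Decoy and 6034 in PBS. The B cell-like share lay above the upper Clopper-Pearson 95% limit of the T cell-like share in Decoy 2 (6.53%) and Decoy 5 (3.85%), and within that interval in Decoy 3, Decoy 6 and PBS. By these median depths, the Tlr9 share of B cell-like cells was read at more depth in each Decoy library than in PBS. After thinning to 3000 UMIs it was 3.38%, 0.562%, 1.29% and 0.664% in Decoy and 0 of 156 cells in PBS, which allows up to 1.92% (difference 1.47 points, exact permutation p = 0.4).

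**Figure D4:**
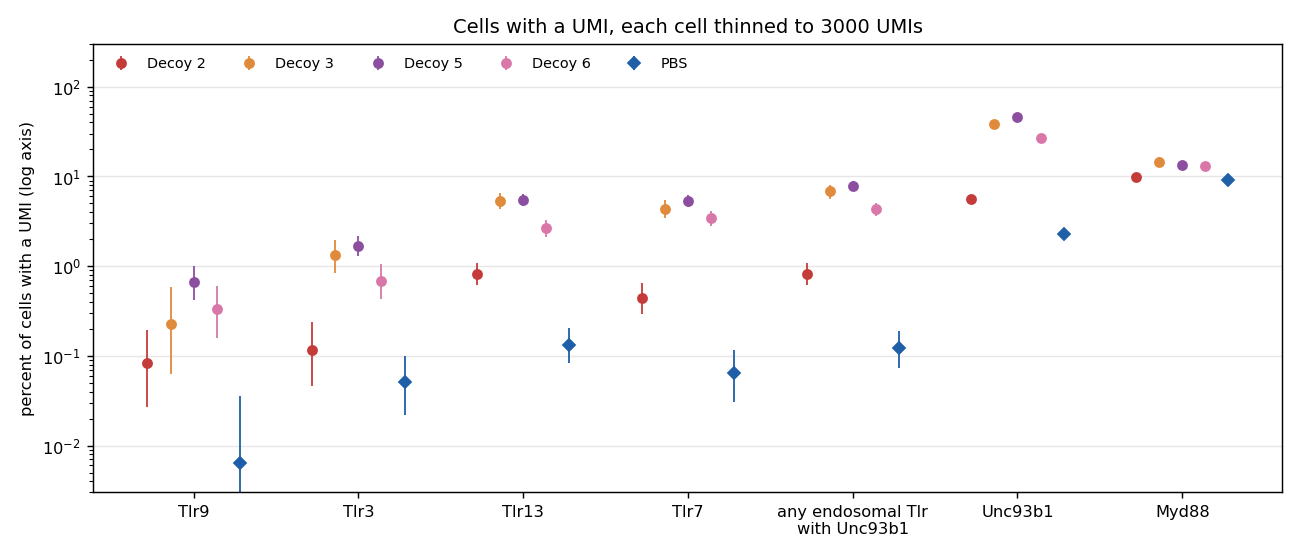
Percent of cells with a UMI (log axis) per library, after thinning each cell to 3000 UMIs and leaving out shallower cells. Clopper-Pearson 95% intervals cover counting error alone. The 5 single genes and any endosomal Tlr with Unc93b1 are set beside Myd88. The Decoy libraries lie above PBS in every column, with Myd88 the closest at 9.84% to 14.5% in Decoy and 9.20% in PBS; without thinning Myd88 turned, with a mean of 53.2% in Decoy and 57.6% in PBS.

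The same edgeR test within cell classes called 0 of the members in any of 6 classes. In mast/basophil-like cells 8 members were tested, with 0.748% of 14305 genes called. Unc93b1 had a log2 fold change of 0.47 ± 0.23 (adjusted p = 0.552), Tlr13 1.97 ± 1.09 from 13, 2 and 1 UMIs in Decoy and 8 in PBS (adjusted p = 0.629), and Irak4, Traf6, Myd88 and Cnpy3 lay between -0.15 and -0.02; the sign of Myd88 and Cnpy3 turned when 1 Decoy library was left out. Tlr3 and Tlr9 were too low to be tested there. At an unadjusted p under 0.05 there were 0 of the 8 members, against 9.58% of all genes, and DESeq2 called 0 of them. Of the 8, 3 were higher and 2 lower in every Decoy library than in PBS, against 27.5% and 26.8% of all genes.

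Among GMP/monocyte-like cells, where 2.6% of 11163 genes were called, the members came closest to a call. Myd88 had 70.7, 71.5, 59.7 and 79.3 CPM in Decoy 2, 3, 5 and 6, against 106 CPM in PBS, a log2 fold change of -0.59 ± 0.14 (adjusted p = 0.0697). Unc93b1, given above for these cells, had a log2 fold change of 0.48 ± 0.12 (adjusted p = 0.0845). Traf6 had -0.51 ± 0.19 (adjusted p = 0.192) and Tlr13 -0.33 ± 0.15 (adjusted p = 0.278). For all 4 genes the groups did not overlap, and of the 9 members tested 3 were higher and 3 lower in every Decoy library, against 31.4% and 29.2% of all genes. At an unadjusted p under 0.05, 3 of the 9 passed (Myd88, Traf6 and Unc93b1), against 18.4% of all genes. DESeq2 called Myd88 (adjusted p = 0.0247) and Unc93b1 (adjusted p = 0.0164), as did edgeR with no filter on low counts (adjusted p 0.0211 and 0.0477). That fit without a filter called 546 of 17091 genes. At clustering resolution 1.0 edgeR called Unc93b1 (log2 fold change 0.58, adjusted p = 0.0392). The shares of all genes called in these cells by DESeq2 and at resolution 1.0 are not given here. The summed macrophage markers in these cells were at 92.7, 107, 164 and 127 CPM in Decoy and 123 CPM in PBS, and the summed B cell markers at 14.6, 27.0, 72.8 and 52.3 CPM in Decoy and 9.21 CPM in PBS. Their part in the result was not tested.

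B cell-like cells had 9 members tested and 0.0542% of 11078 genes called. Tlr9 had a log2 fold change of 1.86 ± 1.29 (adjusted p = 0.561) and Tlr3 2.38 ± 1.00 (adjusted p = 0.342), each against 1 UMI in PBS, so both depend on that single count. Tlr7 had 0.66 ± 0.28 (adjusted p = 0.475) and Unc93b1 0.26 ± 0.15 (adjusted p = 0.491). Of the 9, 6 were higher and 2 lower in every Decoy library, against 31.3% and 31.1% of all genes. At an unadjusted p under 0.05, 2 of the 9 passed (Cnpy3 and Tlr3), against 14.3% of all genes. With marked doublets kept, Tlr7 (1.48, adjusted p = 0.0362) and Unc93b1 (0.95, adjusted p = 0.0362) were called by edgeR, among 507 of 11124 genes. Over all classes that setting put back 1185 barcodes in PBS and 0 to 8 in each Decoy library. The summed macrophage markers in B cell-like cells were at 26.5, 115, 115 and 170.0 CPM in Decoy and 29.3 CPM in PBS, and their part in these values was not tested.

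In macrophage-like cells, where the PBS library has 31 cells and falls short of the 50-cell minimum, the comparison was added after the data had been seen, with a minimum of 30 cells. Here 0.244% of 11909 genes were called, and Tlr13 came nearest among the 10 members with a log2 fold change of 1.15 ± 0.30 (adjusted p = 0.152). Cnpy3 had 0.51 ± 0.20 (adjusted p = 0.353), Tlr7 0.45 ± 0.36 (adjusted p = 0.652), Unc93b1 -0.03 ± 0.14 (adjusted p = 0.955) and Tlr9 -0.48 ± 1.02 (adjusted p = 0.858). Of the 10, 5 were higher and 2 lower in every Decoy library, against 41.7% and 32.5% of all genes, and 2 passed an unadjusted p under 0.05 (Cnpy3 and Tlr13), against 13.7%. On the scale of this test Tlr7 was among the 5 higher, although its CPM over the class total overlapped, as given above.

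Neutrophil-like and T cell-like cells had 0% of 9454 and 0% of 10356 genes called, with smallest adjusted p-values of 0.671 and 0.149 in edgeR. At an unadjusted p under 0.05, 663 genes (7.01%) passed in neutrophil-like and 1186 (11.5%) in T cell-like cells, 1 member in each (Tlr13 and Unc93b1), and DESeq2 called 29 and 100. Of the 8 members tested in neutrophil-like cells 5 were higher and 0 lower in every Decoy library, against 26.8% and 26.4% of all genes. Of the 6 tested in T cell-like cells 2 were higher and 2 lower, against 29% and 28.3%. Tlr13 in neutrophil-like cells had a log2 fold change of 1.97 ± 0.50 (adjusted p = 0.700). The summed macrophage markers there were at 76.8, 178, 192 and 155 CPM in Decoy and 62.1 CPM in PBS, and their part was not tested. Unc93b1 in T cell-like cells was at 28.6, 46.8, 45.6 and 54.5 CPM in Decoy 2, 3, 5 and 6, against 4.67 CPM from 4 UMIs in PBS, with no overlap (log2 fold change 3.27 ± 0.58, adjusted p = 0.220). Unc93b1 was called there by edgeR without Decoy 2 (3.42), among 49 of 9976 genes, and by DESeq2 (3.29), among 100 of 10356. In the same cells Cd79a, a B cell gene, stood at 59.4, 131, 170.4 and 199 CPM in Decoy and 5.84 CPM in PBS, and C1qa at 21.1, 19.1, 29.9 and 56.8 CPM in Decoy and 7.01 CPM in PBS. The part of those transcripts in the Unc93b1 reading was not tested.

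**Figure D5:**
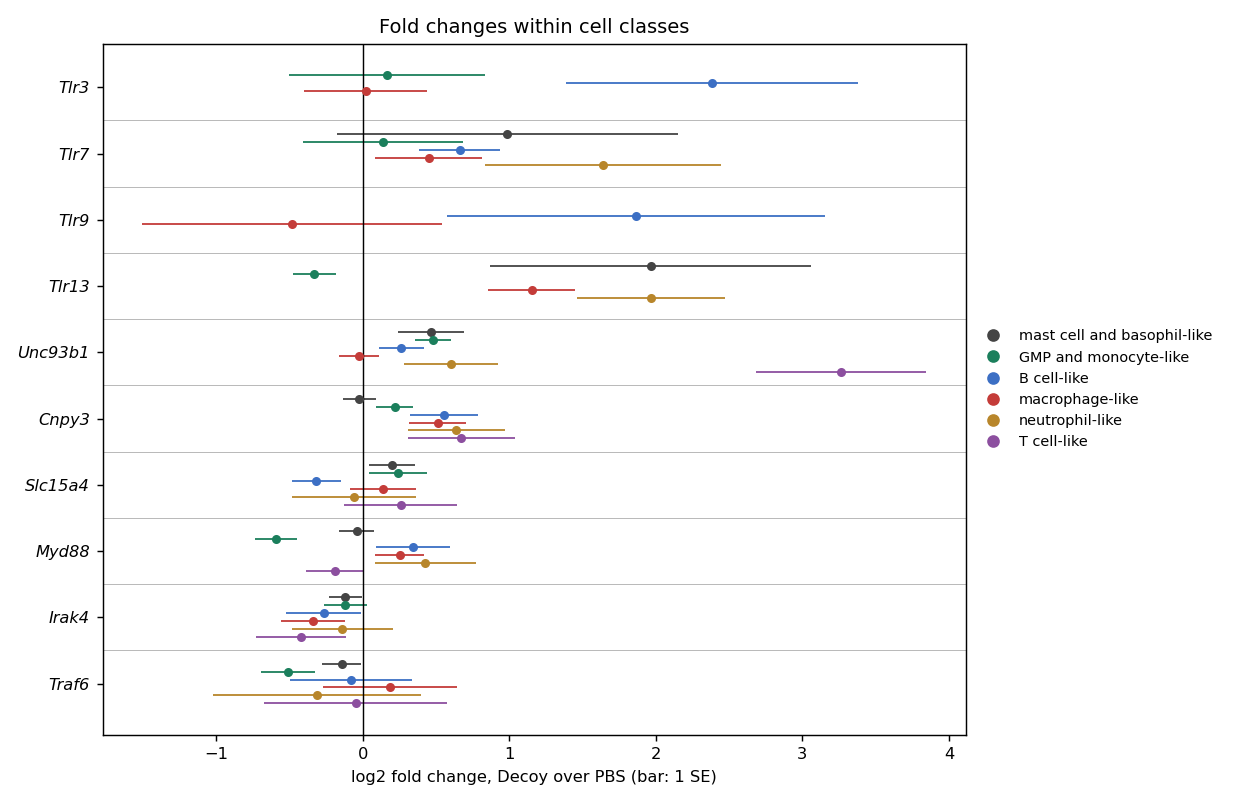
Log2 fold change, Decoy over PBS, of each gene within 6 cell classes, from edgeR, with bars of 1 SE. Irak4 lies below 0 in all 6 classes (-0.42 to -0.12; above 0 in B cell-like cells with at most 5% mitochondrial UMIs and in GMP/monocyte-like cells at clustering resolution 1.0), and the bars of Tlr9 and Tlr3 in B cell-like cells are the widest of that class at 1.29 and 1.00.

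The 4 sets of related genes listed for this pathway were followed in the same tests, and few of their members were called. Of 27 genes that signal below the adaptors, 1 was called in mast/basophil-like cells, where 0.748% of all genes were, namely Irf7, the interferon regulatory factor that Myd88 activates in plasmacytoid dendritic cells. Its level there was 7.58, 14.8 and 9.08 CPM in Decoy 2, 3 and 6, against 2.88 CPM in PBS, so it was higher in every Decoy library (log2 fold change 1.78 ± 0.29, adjusted p = 0.0233); DESeq2 did not call it. The list's median log2 fold change was 0.10, against 0.00 over all genes. Ctss, an endolysosomal cathepsin, rose in the same class, with 1.44, 4.13 and 4.28 CPM in Decoy and 0.42 CPM in PBS (log2 fold change 2.88 ± 0.55, adjusted p = 0.0434), while the other 24 tested genes of trafficking, processing and ligand delivery were not called. The Ctss call was lost with DESeq2, limma voom and marked doublets kept. Macrophage-like cells held 2284 to 2535 CPM of Ctss in Decoy and 1652 CPM in PBS, and the macrophage markers in mast/basophil-like cells were given above; their part in the Ctss and Irf7 readings was not tested.

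In GMP/monocyte-like cells, 4 genes of the sets were called, beside 2.6% of all genes tested there. Irf8, a factor of monocyte and dendritic cell development, rose to 265, 299.8, 351 and 315 CPM in Decoy 2, 3, 5 and 6, against 131 CPM in PBS (log2 fold change 1.23 ± 0.16, adjusted p = 0.0111). Nfkbia, the NF-kB inhibitor that is itself an NF-kB target, fell to 43.003, 56.5, 37.7 and 57.7 CPM in Decoy, against 148 CPM in PBS (log2 fold change -1.62 ± 0.20, adjusted p = 0.0101). Tlr2, a receptor of the cell surface for bacterial lipoproteins, fell to 16.5, 12.9, 11.4 and 13.6 CPM in Decoy, against 28.4 CPM in PBS (log2 fold change -1.07 ± 0.20, adjusted p = 0.0354), and Ctsl, another cathepsin, fell to 89.1, 67.0, 51.3 and 71.5 CPM, against 159 CPM in PBS (log2 fold change -1.19 ± 0.22, adjusted p = 0.0355). The groups did not overlap for any of the 4. The call of Tlr2 was lost without Decoy 3, 5 or 6, and that of Ctsl without Decoy 3 or 6; both were also lost at clustering resolution 1.0. The remaining 26 of 27 signalling genes, 23 of 24 trafficking genes, 9 of 10 surface receptors and co-receptors and 12 of 13 restrainers were not called, and the list medians lay between -0.06 and 0.08, against 0.02 over all genes.

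Macrophage-like cells, with 0.244% of all genes called, had 1 called gene among 78 tested in the sets, Msr1, a scavenger receptor that takes up nucleic acids among other ligands. It stood at 102, 92.4, 115 and 94.96 CPM in the Decoy libraries, against 20.2 CPM in PBS (log2 fold change 2.32 ± 0.30, adjusted p = 0.0439), and its call was lost without Decoy 3, 5 or 6 and with limma voom. Irf7 in these cells was at 355, 281, 366 and 364 CPM in Decoy and 123 CPM in PBS (log2 fold change 1.47 ± 0.22, adjusted p = 0.0544). In B cell-like, T cell-like and neutrophil-like cells 0 genes of the sets were called. The abundant surface pair Ly86 and Cd180 had log2 fold changes of -0.01 and 0.08 in B cell-like cells (adjusted p 0.994 and 0.901 in edgeR). Over all kept cells 0 of 80 set genes were called either, with list medians of 4.91 for the other Toll-like receptors and co-receptors, 1.54 for the restrainers, 0.91 for trafficking and 0.25 for signalling, against 0.02 over all genes.

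The genes whose level over cell classes and libraries was most like that of each receptor were taken from 44 class-by-library sums of 50 or more cells, in 13 classes and 5 libraries, by Pearson's r of log2(CPM + 1). For Tlr9 they were Ciita (0.84), Fam43a (0.82), Gm6377 (0.82) and Cd40 (0.82). For Tlr7 they were Themis2 (0.94), Apobec1 (0.93), Pik3ap1 (0.93) and Mgrn1 (0.93), and for Tlr13 Mefv (0.97), Pla2g7 (0.96), App (0.96) and Gm36161 (0.96). For Tlr3 they were Gm6377 (0.93), Fcgrt (0.91), Lgals8 (0.91) and Ucp2 (0.91). Sums of 1 library share its handling and depth, so the coefficients are a description.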

How the data were processed

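The deposited values are raw counts of UMIs per gene and cell barcode, made with Cell Ranger 5.0.0 per the file headers; the submitters' processing notes name Cell Ranger 3.1, Seurat 4, DESeq2 and build mm10. Barcodes were dropped below 500 genes or 1000 UMIs, above 10% mitochondrial UMIs, or when marked by scrublet. It marked 0 to 0.412% of Decoy barcodes and 6.88% of PBS barcodes, where 1.96% to 5.49% and 15.5% were expected, so the caller did not work for the Decoy libraries and doublets may remain in the classes. This left 31040 of 37035 barcodes. Cells were scaled to 10000 UMIs and clustered with scanpy 1.11.5 and leidenalg 0.10.2 (2000 variable genes, 30 principal components, 15 neighbours, resolution 0.5). Clusters correlating above 0.8 were joined, and a class was named where at least 3 markers passed (found in 10% of cells, 2-fold enriched) and its 10 leading genes did not hold more markers of another class. Class names are rebuilt and may differ from the study's.

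UMIs were summed per library and class of at least 50 cells and tested with edgeR 4.0.16 (quasi-likelihood, TMM scaling, low counts filtered, Benjamini-Hochberg adjustment over all genes tested, R 4.3.3). Alternatives used DESeq2 1.42.0 and limma 3.58.1. CPM by class in the text is scaled to the class's own UMI total. CPM over all kept cells, and those of the called genes of the 4 sets, are TMM-scaled, as are the counts of members lying on 1 side of PBS. Fits lean on the 4 Decoy libraries for their spread and assume that PBS varies likewise; as the labels name no animals, p-values measure the spread between libraries, which may be technical. Poisson and Clopper-Pearson intervals (95%) and the floor of 3 counts cover counting error only. On simulated counts, 94.5% to 100% of 200 genes changed 4-fold were recovered per comparison, with 4 to 11 false calls. The macrophage-like comparison was not simulated. The simulated counts had 1 fixed spread between libraries for every gene, no difference in cell mix, and changes only in well-counted genes. They therefore do not give the power of the tests on the real libraries or on genes of low count.

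The members and gene lists were chosen with earlier results of these data known. Named beside the members were all called genes of the 4 sets, the 2 most abundant genes of sets without a call, and the 4 genes most like each receptor (mean of at least 5 CPM).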

Additional observations from a re-analysis of the deposited data

Results flagged for a closer look

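In 4 of the 74 groups of 4 Decoy libraries that were screened (5.41%), 1 library lay far from the other 3; chance flags about 1 in 20 such groups. Cnpy3 in GMP/monocyte-like cells was at 51.7 CPM in Decoy 2, against 59.7 to 61.0 CPM in the others. Slc15a4 in macrophage-like cells was at 52.4 CPM in Decoy 2, against 61.1 to 62.9 CPM. Unc93b1 in B cell-like cells was at 249 CPM in Decoy 2, against 294 to 298 CPM. Tlr3 in macrophage-like cells was at 11.1 CPM in Decoy 5, against 13.5 to 13.9 CPM.

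For 5 members every Decoy library lay above PBS in 1 class and below it in another, and these differences between classes were not tested. Within single classes, 26.8% to 41.7% of all genes tested were higher in every Decoy library than in PBS, and 26.4% to 32.5% lower. The share of all genes with both signs in different classes was not counted, so the 5 cannot be read as particular to the members. Tlr9 had log2 fold changes of 1.86 in B cell-like and -0.48 in macrophage-like cells, a difference of 2.35 that rests on 1 and 2 UMIs in PBS. Tlr13 had 1.97 in neutrophil-like and -0.33 in GMP/monocyte-like cells, a difference of 2.30. Myd88 had 0.43 and -0.59 in the same classes, a difference of 1.02, although its neutrophil-like groups overlap as CPM of the class total. Traf6 had 0.18 in macrophage-like and -0.51 in GMP/monocyte-like cells, a difference of 0.69. Slc15a4 had 0.24 in GMP/monocyte-like and -0.32 in B cell-like cells, a difference of 0.56.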

How the results depend on the processing

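No paired analysis was possible because a single PBS library stands against 4 Decoy libraries. Counts of called genes moved most. Over all kept cells the count of 0 became 2029 with DESeq2 and ranged from 0 to 2474 without 1 Decoy library. In B cell-like cells the 6 became 13 with library totals alone, 101 with no filter, 187 with DESeq2, 18 with limma voom, 0 with at most 5% mitochondrial UMIs, 507 with marked doublets kept and 237 with the highest doublet scores removed, and 0 to 5 without 1 library. In T cell-like cells the 0 became 28 with no filter, 100 with DESeq2 and 17 with the highest doublet scores removed, and 0 to 49 without 1 library; too few cells remained there for fits with at most 5% mitochondrial UMIs or at resolution 1.0. The 290 of GMP/monocyte-like cells became 546 with no filter and 135 to 473 without 1 library. The 107 of mast/basophil-like cells became 550 with no filter, 263 with DESeq2, 276 with limma voom and 179 at resolution 0.3, and 141 to 342 without 1 library. The 0 of neutrophil-like cells became 29 with DESeq2 and 16 with the highest doublet scores removed, and 0 to 2 without 1 library. The 29 of macrophage-like cells became 174 with no filter, 306 with DESeq2 and 1 with limma voom, and 0 to 420 without 1 library. Apart from fewer libraries or another set of genes tested, the cause was not tested. Small log2 fold changes changed sign. With at most 5% mitochondrial UMIs, Irak4 and Traf6 in B cell-like cells became 0.45 and 1.12. With marked doublets kept, Slc15a4 became 0.37 in B cell-like and 0.11 in neutrophil-like cells. With the highest doublet scores removed, Traf6 in B cell-like cells became 0.13, Myd88, Traf6 and Slc15a4 in T cell-like cells 0.17, 0.30 and -0.078, and Slc15a4 in neutrophil-like cells 0.62. At resolution 1.0 Irak4 in GMP/monocyte-like cells became 0.093, and at 0.3 Myd88 and Slc15a4 in mast/basophil-like cells became 0.081 and -0.048, with Unc93b1 there at 8.28 CPM in Decoy, against 4.47 CPM as reported; at 0.3 that name covers 4470 cells, while 17318 cells are in an unnamed group. Tlr3 in macrophage-like cells became -0.0021 with DESeq2 size factors, -0.019 with library totals and -0.092 with limma voom. Without 1 library in turn, Traf6 ranged from -0.20 to 0.029 in B cell-like and from -0.29 to 0.12 in T cell-like cells, Tlr7 in GMP/monocyte-like cells from -0.080 to 0.32, Myd88 and Cnpy3 in mast/basophil-like cells from -0.10 to 0.014 and from -0.0455 to 0.0087, Slc15a4 in neutrophil-like cells from -0.12 to 0.0017, and Tlr3 and Unc93b1 in macrophage-like cells from -0.023 to 0.092 and from -0.079 to 0.0079. The Decoy minus PBS share of cells with Myd88 turned from 3.45 to -4.45 points without thinning, and that of Traf6 to 0.033 points at 1500 UMIs and between -0.32 and 0.071 without 1 library. In PBS, Tlr9 and Tlr3 rest on between 1 and 7 UMIs in 200 B cell-like and 31 macrophage-like cells.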

Other observations

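The unnamed cluster led by Hba-x and Prg2, which passed all 10 macrophage markers but also carries genes of other classes, held 42, 179, 145 and 122 cells in Decoy 2, 3, 5 and 6, and 35 cells in PBS. It had 0, 7, 9 and 11 UMIs of Tlr9 in the Decoy libraries and 0 in PBS. Of all Decoy UMIs it held 17.0% for Tlr7 and 17.8% for Tlr13.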
